A study of Oncorhynchus mykiss with 6 samples.

Results

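The predicted miRNAs described here are 76 sequences that the deposited miRNA files list under more than 1 predicted name, each with a total count of at least 60 over 6 rainbow trout liver libraries. They were chosen from names whose prefix marks a prediction and whose sequence recurs in the file, and each sequence was counted once, under its name with the highest total. The prefix is left out of the names in the text, so each begins with m and a number, while figures show it. They carry 283 names, and stand among 1685 distinct sequences listed under 2730 names. Of the 76, 41 have 2 names and 35 have 3 or more. The total count chose the members, so totals are given as a description and were not tested. A further 173 predicted sequences with 1 name reach the same total, and 514 sequences carry names of known miRNA families. No sequence had both a known and a predicted name.

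The study compared the livers of female rainbow trout (Oncorhynchus mykiss), aged 150 days, kept at 18 °C (control, 3 libraries) with those of fish whose tank was brought up to 24 °C by a steady daily step (heat, 3 libraries). All fish were first held at 18 °C and were killed with the anaesthetic MS-222. The labels name 12 fish but not which fish gave which library, nor whether RNA was pooled, so the p-values speak of spread among libraries, which may be technical. The labels' extraction text speaks of retina and of fragmented RNA depleted of ribosomal RNA, not of a small RNA library.

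A miRNA is cut from a hairpin whose 2 arms, called 5p and 3p, can each give a mature strand, and the seed near its 5′ end pairs with target messages. When reads are used to predict miRNAs, each genomic position that folds into a suitable hairpin receives its own name, so 1 mature sequence may have several names. The salmonid ancestor duplicated its whole genome, so many trout genes exist as pairs of copies, and trout DNA also holds families of repeats that can fold into hairpins. The sequences with 2 names were therefore set beside those with 3 or more. No genome was used here, so which names are gene copies and which are repeats was not tested.

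Library totals lay between 9267658 and 12778484 counts. The liver-specific miR-122 took 18.7% to 28.7% of them, and summed retina and neural miRNAs reached 55.2 to 106.2 CPM (counts scaled to library size), while summed hepatocyte miRNAs reached 2.48e+05 to 3.93e+05 CPM, as the liver label has it. Control 2 and heat 1 stood apart: their scaling factors by the trimmed mean of M values (TMM) were 1.21 and 1.23, against 0.883 to 0.922 in the other libraries. Control 2 also had the lowest miR-122 share, the highest summed leukocyte miRNAs (3.39e+04 CPM, against at most 1.89e+04 elsewhere) and the highest summed acinar pancreas miRNAs (248.1 CPM, against 13.6 to 145.9). No family on these marker lists was at 0. The leukocyte sum is mostly miR-146: miR-146-x had a mean level of 14.15 log2 CPM, against 10.75 for miR-142-x. The families of a list were summed, so which of them was high in control 2 was not tested.

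The most abundant members of each class, and those with the lowest p in each direction, are shown first because most of the values below are theirs. Sequences are copied from the deposited files and read 5′ to 3′, with T for U and the seed (bases 2 to 8) in capitals. The first 6 are the most abundant with 2 names.
m0917-5p: tGGCACCCtcttccctatgtag
m0844-3p: tCCATCAGtcatgtgacctga
m1357-5p: aTAGCACTcttgatgatcaact
m2021-5p: gCTTTGACaatgttgcactact
m1741-3p: tGCGCACGgggccacgctctgc
m0430-3p: cTCACTGAtcaatgaatgcag

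The next 6 are the most abundant with 3 or more names.
m0689-5p: tATAGTGCacttctcttgacc
m1922-3p: cAAGCTTGattctataggtctc
m1483-5p: aAACATGAtgattctgagaa
m0374-5p: aATGTACAaccagaaccgccgc
m0628-5p: gATCTGTTcgtgccgtcttgc
m0708-3p: tCAATATGatttgtagatcagt

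These 5 were the farthest apart between the groups relative to their error, or had the most names.
m2018-5p: tAAGTGGAacggtatcaaatac
m0680-5p: tGTGGACCctgagtttcaccc
m1038-5p: cATGAAGGaccggaattctcgt
m1187-3p: tCTCTGATtgggtatcatact
m0991-3p: tAAGTGCTttttgttgggttat

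The lengths of all 76 lay between 20 and 23 bases, and no seed was shared between members. Among the 35 sequences with 3 or more names, 16 had 3 names, 5 had 4 and 14 had at least 5. The sequence with most names, m0374-5p, had 16, followed by m1038-5p with 15, m1187-3p with 14 and m0991-3p with 13. In 62 of the 76 (81.6%) the counts were identical under every name. In the other 14 the names of 1 sequence differed, as for m1251-5p, with 676 counts under this name and 464 under m1124-5p. The names end in 5p in 154 cases and in 3p in 129, and 9 sequences were a 5p strand under 1 name and a 3p strand under another.

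The sequences with 2 names had a median total of 175 (62 to 3267), and those with 3 or more names a median of 112 (62 to 1454). A total of 1000 or more was reached by 7 and 3 of them, and 11 and 14 stayed under 100. The members just inside the limit were m1187-3p, m0706-3p and m1282-3p, with 62 counts each. Just outside were m0368-5p with 59 counts and m1072-5p and m1578-3p with 57 each.

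**Figure D1:**
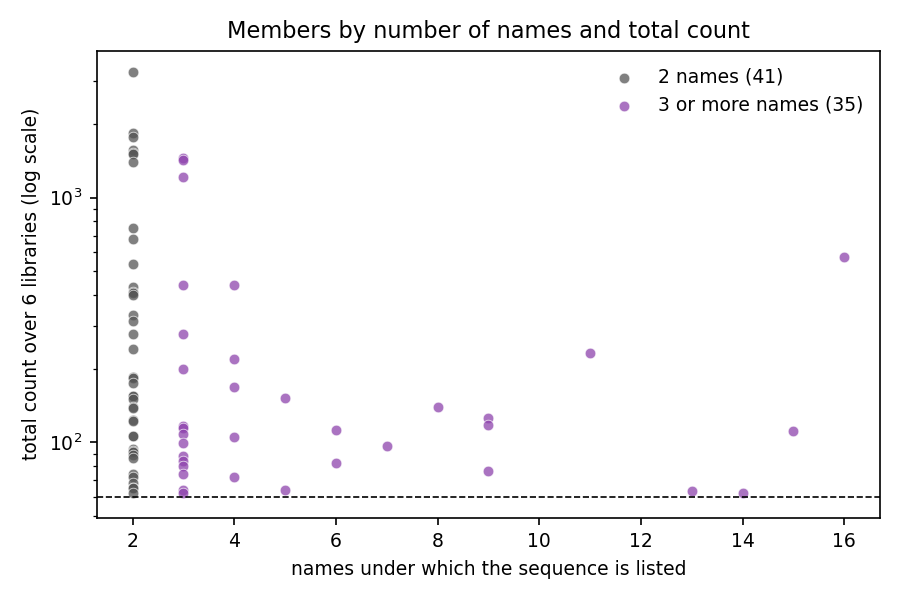
Number of names against total count over the 6 libraries (log axis) for the 76 sequences, 1 point each. Sequences with 2 names reach 3267 counts, while those with 9 or more names stay at or below the 572 counts of m0374-5p.

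All members together were a small share of the libraries, given here as CPM of raw library totals. Counted once per sequence, they made 389.2, 508.6 and 363.3 CPM of all counts in control libraries 1 to 3 and 520.2, 400.6 and 482.5 in heat libraries 1 to 3. The groups overlapped, with means of 420 ± 77.5 and 468 ± 61.1 CPM (SD, n = 3 each). The sequences with 2 names gave 281 ± 39.4 CPM in control and 337 ± 46.9 in heat. Those with 3 or more names gave 139 ± 38.1 and 131 ± 21.4. Because the files repeat each sequence under its names, a sum over names would give 1211 CPM in control and 1318 in heat.

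Some members overlapped a known miRNA of the same files, and these are set out with the shared stretch in capitals. The first pair differs by 1 base at the 3′ end, the second is shifted by 1 base, and in the third the member has 3 more bases at its 5′ end.
m1741-3p: TGCGCACGGGGCCACGCTCTGc
miR-10544-y: TGCGCACGGGGCCACGCTCTG
m1922-3p: CAAGCTTGATTCTATAGGTCTc
miR-100-y: aCAAGCTTGATTCTATAGGTCT
m1137-3p: tgaACAGTAGTCTGCACATTGGT
miR-199-y: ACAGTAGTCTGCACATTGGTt

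The 2-name sequence m1741-3p, which keeps the seed of miR-10544-y, was counted 258, 210 and 402 times in control libraries 1 to 3 and 262, 177 and 215 times in heat libraries 1 to 3. It exceeded the shorter known form in every library, at 185% to 636% of its count, the highest in control 2. The groups overlapped, with a log2 fold change (heat against control, on TMM-scaled counts, here and below) of −0.45 ± 0.44 (SE).

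The sequence m1922-3p lacks the first base of miR-100-y, a form of the 3p strand of miR-100, and so has another seed. It has 3 names and was counted 137, 513 and 127 times in control and 388, 136 and 119 times in heat. It was highest in control 2 and heat 1, the 2 libraries that stood apart. In these it made 43.0% and 42.8% of the count of miR-100-y, against 20.6% to 29.9% in the others, and its log2 fold change was −0.24 ± 0.51.

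The sequence m1137-3p starts before miR-199-y, the 3p strand of miR-199, and also has another seed. It was rare beside that form, at 0.0430% to 0.0755% of a count that totals 908632. Its counts were 59, 223 and 54 in control and 105, 41 and 52 in heat. Control 2 was the highest on the normalized scale, and the log2 fold change of −0.68 ± 0.51 became −0.06 without it. The summed leukocyte, acinar pancreas, erythrocyte, retina and neural, and muscle miRNAs were highest in the same library. Their part in this value was not tested.

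The other arm gave a second link to known families. The 3p arm listed with m2021-5p begins with the whole of miR-301-y, a member of the seed family of miR-130 and miR-301, and the capitals again mark what is shared.
m2021-3p: CAGTGCAATAGTATTGTCATAGCatt
miR-301-y: CAGTGCAATAGTATTGTCATAGC

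The 5p strand itself differs from the listed miR-301-x, with 17 of 22 positions identical, and was counted 252, 338 and 226 times in control and 464, 118 and 166 times in heat. Its total of 1564 exceeded the 1151 of miR-301-x and lay below the 3738 of miR-301-y. Heat 1 was the highest library and heat 2 and 3 were below every control, so the groups overlapped, with a log2 fold change of −0.27 ± 0.40. Likewise, the 5p arm listed with m1137-3p shares 20 bases with miR-199-x, the 5p strand of miR-199.

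Besides m1741-3p, 4 members share a seed with a known name. The sequence m1294-5p (seed CCCAGAT) is identical to miR-8162-x over its first 16 bases. The 13-name sequence m0991-3p (seed AAGTGCT) matches miR-430-y, of a family known from zebrafish for clearing maternal messages in the early embryo, at 18 positions. The sequences m1917-5p and m0400-5p share the seeds of miR-194-y and miR-92-x and little else, with 10 and 9 identical positions. The counts of m0991-3p were 5, 7 and 7 in control and 25, 6 and 13 in heat, those of m1917-5p 11, 20 and 23 against 20, 22 and 21, and those of m0400-5p 7, 35 and 0 against 38, 5 and 4.

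Both arms of a hairpin were listed for 26 of the 76 sequences. By class these were 16 of the 41 with 2 names (39.0%) and 10 of the 35 with 3 or more (28.6%), beside 64 of the 173 with 1 name (37.0%). In 7 pairs of sequences both arms are members, so the arms can be compared within each library. Each pair is listed together under 1 to 5 hairpin names. In m1357 the 5p arm was dominant, with 92.3% to 94.6% of the counts of both arms in the 5 libraries where either was counted. The pair of m0628-5p and m0627-3p was the reverse, with 18.1% to 32.0% on the 5p arm. The arms of m1483 varied more, from 56.1% on the 5p arm in control 3 to 87.8% in heat 1.

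The counts behind these pairs show how steady or uneven each arm was. The 3p strand m0627-3p was even, at 199, 279 and 210 counts in control and 257, 179 and 276 in heat, with a log2 fold change of 0.11 ± 0.36. Its partner m0628-5p gave 82, 71 and 99 against 72, 54 and 61, with a log2 fold change of −0.44 ± 0.43. In m1483 the 5p arm gave 199, 290 and 119 against 303, 166 and 135, and the 3p arm 49, 63 and 93 against 42, 94 and 65. The groups overlapped for each of these 4 strands.

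In the other 4 pairs the 5p share lay between 60.6% and 94.9% for m0257, 60% and 73.7% for m0520-5p with m1582-3p, 60.6% and 77.8% for m1619-5p with m0328-3p, and 22.6% and 50.0% for m1898-5p with m1910-3p. The 5p share of control and heat libraries overlapped in all 7 pairs. A further 12 members have an other arm that is not itself a member. In 11 of these the member had the higher listed total. The ratio of listed totals was 261 for m2021-5p and 93.3 for m0917-5p. The exception was m1772-5p, at 0.719 of its other arm. For m2021-5p the listed arm begins with miR-301-y, whose 3738 counts exceed the 1564 of the member. The arm listed with m1137-3p, also among the 11, shares 20 bases with miR-199-x, which has 5382412 counts. How reads were divided between such names was not tested.

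**Figure D2:**
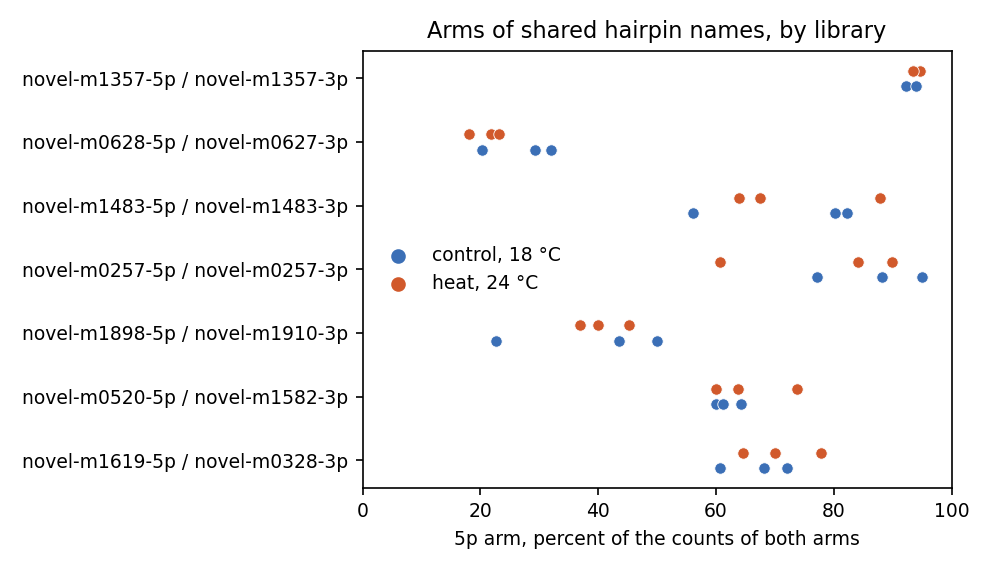
Percent of both arms' counts that lie on the 5p arm, for the 7 pairs of sequences whose arms are both members, 1 point per library. The m1357 points lie between 92.3% and 94.6%, and the m1483 points spread from 56.1% to 87.8% with both groups mixed.

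Sequence features of the classes were set side by side as a description, since members share sources. The first base was T in 24 of the 35 sequences with 3 or more names (68.6%), in 19 of the 41 with 2 names (46.3%) and in 85 of the 173 with 1 name (49.1%). Median GC content was 42.9%, 45.5% and 45.0%. A relative is another listed sequence within 2 edits, with up to 2 bases trimmed from either end. No relative was found for 12 (34.3%) of the sequences with 3 or more names, 24 (58.5%) of those with 2 and 101 (58.4%) of those with 1. Among the members the most relatives were 16, for the 4-name sequence m1607-5p, followed by 12, for the 6-name sequence m1772-5p, while sequences with 1 name reached up to 17.

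Short words recurred across members. Words of 8 letters were counted on either strand, and those found in most members are CTACATAG, GTGCACTA, AGGGAATA, AGTGCACT, ATAGTGCA and CCATTCCA. The words GTGCACTA, AGTGCACT and ATAGTGCA overlap one another by up to 7 letters, and a member can hold more than 1. In m0360-3p the matches of ATAGTGCA, CTACATAG and AGGGAATA overlap in turn along a single stretch, and m0724-5p holds both AGGGAATA and ATAGTGCA. The words are therefore not separate from one another. These words were picked after the sequences were seen, and a match is not a site. Some of the members that hold the first 3 are printed, each with 1 match, or its reverse complement, in capitals.
m0917-5p: tggcaccctcttccCTATGTAG
m0360-3p: tgcaCTATGTAGggaatatgat
m1732-5p: atttcCTACATAGtgcgctact
m0689-5p: taTAGTGCACttctcttgacc
m0257-5p: attccctttgcaGTGCACTAct
m0828-3p: ttctctgaagtaGTGCACTAct
m1251-5p: cTATTCCCTatgttgtacact
m0724-5p: cccTATTCCCTctatagtgcat

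CTACATAG was in 6 members (7.89%), in 5 of the 173 sequences with 1 name (2.89%) and in 0 of the 514 known sequences. GTGCACTA was in 6 members (7.89%), 4 of them with 3 or more names, in 3 sequences with 1 name (1.73%) and in 0 known sequences. AGGGAATA was in 5 members (6.58%), 5 with 1 name (2.89%) and 0 known sequences. ATAGTGCA was in 5 members, each with 3 or more names, in 2 sequences with 1 name (1.16%) and in 1 known sequence. AGTGCACT was in 5 members, 3 with 1 name and 1 known. CCATTCCA was in 5 members, 5 with 1 name and 1 known. The members counted are not independent. The overlapping m2045-3p and m0885-3p both hold CTACATAG, GTGCACTA, AGTGCACT and ATAGTGCA. The overlapping m0957-3p and m1834-3p both hold AGGGAATA, and both arms of m0257 hold GTGCACTA.

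Members that overlap each other are a further kind of shared sequence. Capitals mark the shared stretch in the 2 pairs found on the same strand. Overlaps between opposite strands were not searched for, and m1898-5p shares a stretch with the reverse complement of m1911-3p.
m0957-3p: CACTTCGTAGGGAATAGGgtgt
m1834-3p: tgCACTTCGTAGGGAATAGG
m2045-3p: tAAAACTAGTGCACTATGTAGG
m0885-3p: AAAACTAGTGCACTATGTAGGa

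The pair m0957-3p and m1834-3p had profiles alike across libraries. The counts were 32, 175 and 123 in control and 238, 83 and 102 in heat for the first, and 9, 76 and 80 against 136, 52 and 78 for the second, both lowest in control 1. Their log2 fold changes were 0.37 ± 0.53 and 0.70 ± 0.67. Without control 1 these were −0.01 and 0.24, and without control 3 they were 0.65 and 1.33. These overlapping pairs cover the same stretch of letters, so they are not independent.

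Several members were at 0 in 1 library and well counted in the rest. Of the 76, 65 were counted in every library. At least 1 library was at 0 for 4 sequences with 2 names and for 7 with 3 or more. By library, 7 members were at 0 in control 3, 4 in heat 3, 2 in control 1, 2 in heat 1, 1 in heat 2 and 0 in control 2.

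The largest such gap was in m1357-5p, the third most abundant member, with 346, 514 and 0 counts in control and 325, 278 and 313 in heat. Taking 3 counts per library as the limit that a true count of 0 allows, control 3 was at least 69.4-fold lower than the lowest of the other 5 libraries. The smallest listed count above 0 was 2. If a listed 0 can stand for a lower nonzero count, the limit is higher and such folds are smaller. The 3p arm of the same hairpin was at 0 in the same library, with 29, 33 and 0 against 23, 16 and 22 counts. A relative listed under 1 name, m0277-5p, differs from m1357-5p by A3G, counted from 1 at the 5′ end of the member, inside the seed. It too was at 0 in control 3, with 36, 62 and 0 counts against 37, 44 and 38.
m1357-5p: atAgcactcttgatgatcaact
m0277-5p: aTGGCACTcttgatgatcaact

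In the first line the capital marks position 3, and in the second the capitals mark the seed. In the 5 libraries that had both, m1357-5p made 86.3% to 90.6% of their summed counts. With control 3 the log2 fold change of m1357-5p was 0.24 ± 1.36, and without it −0.30. The overlapping pair m2045-3p (44, 39 and 0 counts against 70, 25 and 22) and m0885-3p (21, 10 and 0 against 32, 12 and 9) was also missing from control 3. Under the same limit for a true 0, these were at least 7.78-fold and at least 2.33-fold below the lowest other library. Control 3 had 11117223 counts, above the lowest library total.

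A single base also separated 2 other well counted pairs. The sequences m1251-5p and m0626-5p differ by A17G, and their balance varied between libraries. The member is among the 14 whose names differ in counts, and its counts here are those under m1251-5p alone. How reads were split between its names was not tested. The member was counted 90, 2 and 68 times in control and 210, 149 and 157 times in heat, and the relative 18, 36 and 23 times against 9, 8 and 0. The member made 83.3%, 5.26% and 74.7% of both in control and 95.9%, 94.9% and 100% in heat.

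Control 2 was the library in which the relative exceeded the member under this name. The normalized levels under the name m1251-5p did not overlap between the groups. The log2 fold change was 1.51 ± 1.06, which was 0.93 without control 2 and 2.21 without control 1. The sequences m0627-3p and m0628-3p differ by G16T. The member made 68.0% to 83.0% of both in control and 75.4% to 89.3% in heat, and the groups overlapped.

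**Figure D3:**
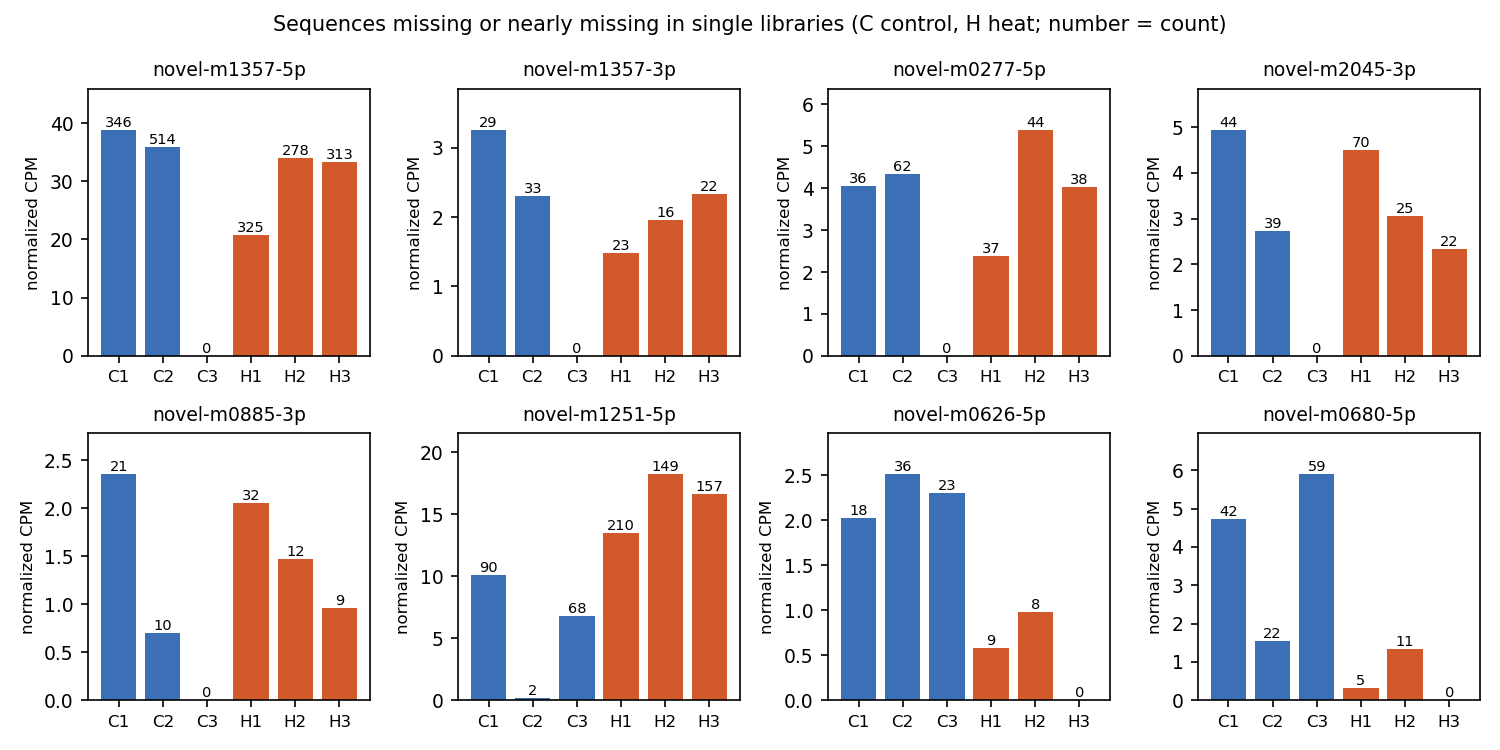
Normalized CPM of 8 sequences in control (C1 to C3) and heat (H1 to H3) libraries, with the count above each bar. The strands of m1357, m0277-5p, m2045-3p and m0885-3p are at 0 in C3 and counted in the other 5 libraries, and m1251-5p has 2 counts in C2.

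Other members were counted mostly in 1 library. Control 2 held 86.6% of the summed normalized CPM of m0828-3p (0, 71 and 2 counts against 5, 2 and 0), 70.1% of that of m1187-3p (13, 49 and 0 against 0, 0 and 0) and 63.9% of that of m0706-3p (4, 43 and 0 against 9, 2 and 4). Heat 3 held 60.4% of m1038-5p. Control 2 was the library with the highest level for 19 of the 76 members, against 5 to 16 for the others. The same library was the highest for 48 of the 173 predicted sequences with 1 name, against 22 to 29 for the others. The typical member was not high in control 2. The median log2 deviation of members from their own mean over libraries was −0.11 there, the lowest of all libraries. By class it was −0.134 with 2 names and 0.0558 with 3 or more, and with 1 name it was 0.0947. Control 2 was also highest for the leukocyte, acinar pancreas, erythrocyte, retina and neural, and muscle lists. Their part in these values was not tested.

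The comparison of heat with control asks which of these sequences differ in the warmed fish. After filtering on low counts, 476 sequences were tested, with each sequence once. Of the members 69 entered the test, 39 with 2 names and 30 with 3 or more. The 7 that did not were m0400-5p, m0828-3p, m1894-3p, m0376-5p, m0991-3p, m1187-3p and m0706-3p.

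No member passed an adjusted p of 0.05 in edgeR's quasi-likelihood test, and neither did any of the 476 sequences (0%). At an unadjusted p under 0.05 there were 3 members, beside 10 of all 476 (2.1%). The DESeq2 Wald test called 1 of 1679 sequences (0.0596%), a member, and had an unadjusted p under 0.05 for 23 (1.37%), 5 of them members. Without the filter on low counts, edgeR called 6 of 1685 sequences (0.356%), 4 of them members. The DESeq2 call was m0844-3p. The 4 edgeR calls without the filter were m0844-3p, with an adjusted p of 4.22e-15, m1187-3p with 0.00106, m0680-5p with 0.023 and m0376-5p with 0.042. Of these, m1187-3p was counted in control 1 and 2 alone and m0376-5p had 0 counts in heat 1 and 3. Both reached the total of 60 almost wholly through control, the group in which they were high. The counts of m0680-5p also lay mostly in control. The number of members among these calls therefore rests in part on how members were chosen.

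Fold changes were centred near 0 in both classes. The median log2 fold change was −0.01 for the 39 tested sequences with 2 names, of which 19 were above 0 and 20 below. It was −0.01 for the 30 with 3 or more names, with 14 above and 16 below. The median over all 476 was −0.09, with 193 above 0, and over 157 tested predicted sequences with 1 name it was −0.03. The range was −2.90 to 4.78 with 2 names and −0.77 to 2.42 with 3 or more. The median SE was 0.57 over the 69 tested members and 0.50 over all 476. For 5 of the 69 the whole 95% interval lay inside a 2-fold change up or down. The same held for 5 of the 157 with 1 name and for 79 of all 476.

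Every heat library was above every control library for 6 of the 69 tested members (8.70%), beside 12 of 476 sequences (2.52%). Every heat library was below for 1 (1.45%), beside 20 of 476 (4.2%). The 476 include the members. Among the 157 tested predicted sequences with 1 name, which met the same total, heat was wholly above for 3 (1.91%) and wholly below for 7 (4.46%). Members were chosen by the total over both groups, so a sequence high in 1 group could enter through that group alone. The 6 members above were m0844-3p, m1251-5p, m0229-5p, m2018-5p, m0360-3p and m1772-5p, and the 1 member below was m0680-5p. Some gaps were narrow. For m0360-3p (14, 19 and 15 counts against 36, 13 and 15) the lowest heat library had 1.593 normalized CPM and the highest control 1.572. For m0229-5p these were 2.373 and 2.302. By raw library totals the groups of m0360-3p overlap. Control 2 had 19 of 11894384 counts, a higher share than the 13 of 9267658 in heat 2. Whether the other gaps hold under another scaling was not tested. Outside the test, m0991-3p was wholly above and m0376-5p (35, 11 and 14 counts against 0, 4 and 0) wholly below.

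The greatest tested difference was in m0844-3p, which has 2 names and no listed other arm. It was counted 11, 48 and 11 times in control and 754, 129 and 893 times in heat, or 1.90 ± 1.26 against 53.0 ± 39.7 normalized CPM (SD, n = 3 each). The groups did not overlap, and the heat libraries themselves ranged from 15.8 to 94.8 CPM. The log2 fold change was 4.78 ± 0.82 (95% interval 2.88 to 6.67), a 27.4-fold difference, with an adjusted p of 0.208 in edgeR. In DESeq2 the adjusted p was 8.25e-10. Leaving out any 1 library kept the log2 fold change between 4.09 and 5.49.

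The 9-name sequence m2018-5p was counted 0, 16 and 6 times in control and 25, 42 and 29 times in heat, or 0.573 ± 0.559 against 3.28 ± 1.78 normalized CPM. The groups did not overlap. Its log2 fold change was 2.42 ± 0.94 (95% interval 0.23 to 4.60), with an adjusted p of 1.00 in edgeR. It was 1.92 without control 1 and 3.33 without control 2. Most of the 118 counts of m2018-5p lay in heat, so its place among the members rests largely on the group in which it was high.

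In the other direction, m0680-5p was counted 42, 22 and 59 times in control and 5, 11 and 0 times in heat, or 4.05 ± 2.26 against 0.556 ± 0.704 normalized CPM. Every heat library was below every control library. Its log2 fold change was −2.90 ± 1.06 (95% interval −5.38 to −0.42), with an adjusted p of 1.00 in edgeR, and 0.023 without the count filter. It was −4.40 without heat 2 and −2.28 without heat 3. Most of the 139 counts of m0680-5p lay in control, so its place among the members likewise rests largely on 1 group.

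The next lowest p-values belonged to members whose groups mostly overlapped. The 15-name sequence m1038-5p had 4, 10 and 11 counts in control and 15, 9 and 62 in heat, and its log2 fold change of 1.92 ± 0.85 was 0.48 without heat 3. The sequence m1772-5p had 3, 11 and 11 counts against 35, 10 and 12, with a log2 fold change of 1.10 ± 0.61. For m0945-5p the counts were 17, 11 and 26 against 23, 36 and 41, and the log2 fold change 0.95 ± 0.63. Of these 3, m1772-5p alone had groups that did not overlap on the normalized scale. Most counts of each of the 3 lay in heat, so their place among the members rests in part on the group in which they were high.

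On the lower side, m1294-5p, with the seed of miR-8162-x, had 21, 9 and 35 counts against 20, 5 and 2 and a log2 fold change of −1.54 ± 0.81, which was −2.37 without heat 1 and −0.97 without control 3. The counts of m1859-5p were 7, 59 and 27 against 21, 14 and 10, with a log2 fold change of −0.90 ± 0.62, and −0.36 without control 2. Those of m1955-5p were 68, 19 and 103 against 52, 18 and 52, with −0.79 ± 0.73, and −0.22 without control 3. The groups overlapped in each of these 3. Most counts of m1294-5p and m1859-5p lay in control, so their place among the members likewise rests in part on that group.

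The most abundant member, m0917-5p, was even in raw counts, with 405, 533 and 588 in control and 587, 564 and 590 in heat. Its normalized level was 47.2 ± 10.9 CPM in control and 56.5 ± 16.6 in heat, with a log2 fold change of 0.26 ± 0.36. The groups overlapped.

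Other abundant members also had overlapping groups. The counts of m0430-3p were 177, 435 and 168 against 334, 160 and 240, with a log2 fold change of −0.01 ± 0.38. Those of m0689-5p were 151, 238 and 332 against 231, 255 and 247, with 0.11 ± 0.46. The 16-name sequence m0374-5p had 76, 176 and 44 against 129, 72 and 75, with −0.01 ± 0.46.

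On the normalized scale the heat libraries of m0374-5p were close together, at 8.35 ± 0.436 CPM, beside 8.41 ± 3.95 in control. The 4-name sequence m0708-3p had 58, 143 and 46 counts against 115, 42 and 34, with a log2 fold change of −0.39 ± 0.47. For m1282-3p, at the limit of the total, they were 10, 7 and 10 against 16, 10 and 9, with 0.31 ± 0.59.

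**Figure D4:**
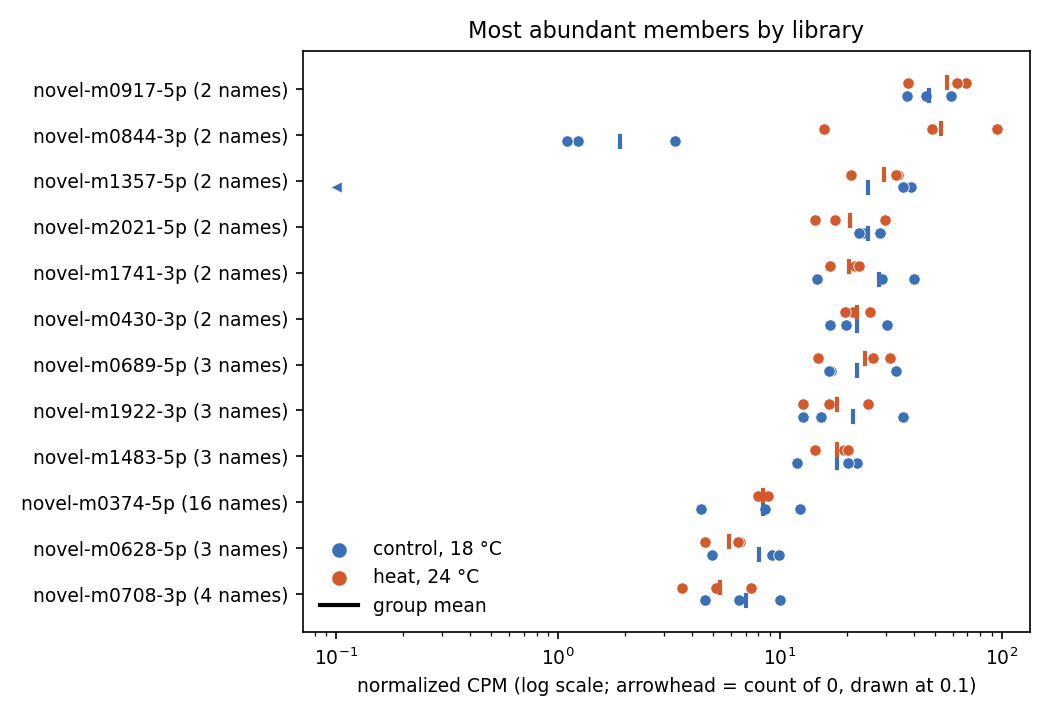
Normalized CPM per library of the 12 most abundant members, 6 from each class, with control and heat libraries as points. The heat points of m0844-3p, from 15.8 to 94.8 CPM, lie above its control points, while the groups overlap for the other 11.

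**Figure D5:**
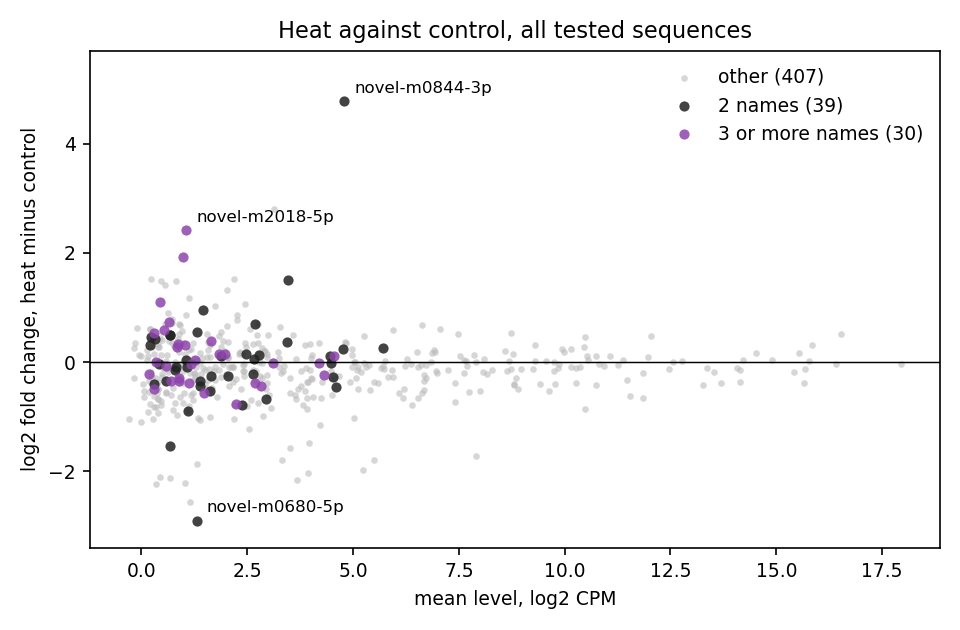
Log2 fold change (heat against control) of the tested sequences against their mean level, with members coloured by class. Members of both classes are spread around 0, with m0844-3p at 4.78, m2018-5p at 2.42 and m0680-5p at −2.90 the tested members farthest from it.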

How the data were processed

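Small RNA was measured in 3 control and 3 heat liver libraries. The deposited tables give raw read counts per miRNA name, per the file headers, as whole numbers with no value between 0 and 2. The aligner, genome build and prediction method were not given in the sources used here, and the authors' deposited TPM values were not used. Rows with the same sequence were merged to the name with the highest total. The members and all lists, words and pairs were chosen with earlier results of these data known.

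Counts were tested in edgeR 4.0.16 (R 4.3.3) with the quasi-likelihood test, filterByExpr at a minimum count of 10, TMM scaling and Benjamini-Hochberg adjustment over all sequences tested at 0.05. DESeq2 1.42.0 was an alternative, as were other scalings and filters, rows kept per name or summed, libraries left out and a replicate block. The code was tested on simulated data. Named are the 6 most abundant members per class, the 5 with the lowest p in each direction, the 4 with most names, the 4 most confined to 1 library, the 3 nearest the limit, overlapping pairs and those with a known seed. Others (among them arm pairs, word holders, single-base relatives, untested members and those whose groups do not overlap) were named after their values were seen. Words (either strand) and overlaps (same strand, shifts up to 4 bases, at least 14 compared) were found with Python 3.11.15. Library totals of 9267658 to 12778484 set the precision: a true count of 0 allows up to 3 counts, and such limits cover counting error only. Whether a listed 0 is a true 0 is not known, since the smallest count above it is 2.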

Additional observations from a re-analysis of the deposited data

How the results depend on the processing

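Log2 fold changes of 21 members were recomputed under 15 settings. Of 309 values 41 changed sign, all in 6 members, and 3 passed the threshold. Members called were 0 in every edgeR setting with a count filter, as were calls over all sequences. The DESeq2 Wald test called 1 of 1679 sequences (0.0596%), a member. Without a count filter edgeR called 6 of 1685 sequences (0.356%), 4 of them members. These 4 include m1187-3p and m0376-5p, which reached the total almost wholly through control. Medians moved to 0.083 (2 names, no filter), 0.170 (2 names, minimum count of 20) and 0.093 (3 or more names, minimum count of 20). Leaving out 1 library gave −0.03 to 0.155 for 3 or more names, the highest without control 2. A total of at least 30 or 120 gave 127 or 42 members, and a minimum count of 20 left 41 tested. Summing names gave 1211 and 1318 CPM of raw library totals, since each sequence then enters several times. Values near 0 changed sign, here in the order DESeq2 size factors, Wald test, no filter, minimum count of 20, every name as a row, summed names, control 2 and heat 1 both left out, and replicate block. They were 0.05, 0.05, 0.08, 0.09, 0.01, 0.01, 0.30 and 0.03 for m0430-3p. They were 0.05, 0.06, 0.07, 0.09, 0.01, 0.01, 0.02 and 0.02 for m1483-5p. They were 0.06, 0.06, 0.08, 0.10, 0.01, 0.02, 0.38 and 0.10 for m0374-5p. For m1922-3p it was 0.07 with both libraries left out. Leaving out 1 library gave −0.30 to 0.76 for m1357-5p, −0.14 to 0.27 for m0430-3p, −0.11 to 0.56 for m0689-5p, −0.54 to 0.36 for m1922-3p, −0.20 to 0.19 for m1483-5p and −0.28 to 0.37 for m0374-5p. The median over all sequences tested in both fits also moved against the main fit. In the order given above, it moved by 0.055, 0.060, 0.091, 0.084, 0.018, 0.022, −0.010 and 0.050. The cause of the sign changes was not tested. Libraries of the same number did not deviate together (correlations 0.0417, −0.284 and 0.0792, and 1 of 6 correlated best with its own number). With 3 libraries per group these correlations cannot decide whether such libraries share more than a number. With the replicate block 0 members were called, and 0 of all 476 sequences, as in the main fit.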
